A study of Mus musculus with 12 samples.

Results

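Between D7 and D8 the expression difference between embryoids and controls changed by more than 2-fold on the log2(TPM + 1) scale for 345 of 13751 tested genes, 2.51% of them. The change was upward for 222 genes (1.61%), so that embryoids gained relative to controls, and downward for 123 genes (0.894%). This balance depended on the scaling, since quantile normalization gave 138 upward and 191 downward, and without replicate 3 of the D8 controls the upward count was 139. Genes of heart muscle and connective tissue were among those that moved in embryoids only. Some genes of early cortical neurons and of multiciliated cell formation were among those that moved in controls only. Early cortical neuron genes as a group rose in both conditions. These genes were chosen with limma, a linear model that shares information on the spread between genes, by the contrast (embryoid D8 minus control D8) minus (embryoid D7 minus control D7), with thresholds of 0.05 on the adjusted p (Benjamini-Hochberg) and of 1, to be exceeded, on the size of the log2 change. A gene that passed both thresholds is described as called. The change is written as the change of the difference, and its standard error as ± SE.

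Bulk RNA sequencing was carried out on 4 groups of 3 libraries, D8 embryoids, D7 embryoids, D8 controls and D7 controls. Embryoids are aggregates of mouse embryonic stem cells (ESC) in which a small aggregate of 50 cells, incubated at D3 for 8 h with 10 ng/ml of the morphogen BMP4, was merged with an untreated aggregate of 100 cells. In the controls an untreated aggregate of 50 cells took the place of the stimulated one. All cells are labelled as E14TG2a, an ESC line of the 129/ola strain, and each library was made from 12 pooled embryoids or controls. These amounts are those of the sample labels. The methods and legends of the study give the BMP4 concentration in µg/ml, so that the sources differ by orders of magnitude, and another pool size, and which is right was not settled here. The replicates are described as biologically independent samples, but all are labelled as 1 cell line, and p-values measure the spread between these pools.

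In mouse development, BMP4, WNT and NODAL signals pattern the gastrula, and cells that receive them form mesoderm and endoderm, whereas cells sheltered from them form anterior neural tissue. Heart, connective tissue and the mesoderm of the yolk sac derive from the first kind of tissue. The cerebral cortex derives from the second, and its earliest neurons, the Cajal-Retzius cells, arise at its edges, among others at the cortical hem, a WNT and BMP source. A difference that changes over a day shows where the pair of conditions moved apart or together, which the comparison on either day alone cannot give.

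Values are the authors' TPM rounded to whole numbers, for 24946 genes, with sums between 997897 and 998433 in each library. The sequencing depth behind these values is unknown, and a step from 0 to 1 or from 1 to 2 can be rounding. D7 embryoids varied most between replicates, with a median SD over the tested genes of 0.16 on the log2 scale, against 0.08 in D8 embryoids, 0.05 in D8 controls and 0.06 in D7 controls. Replicate 2 of the D7 embryoids stood apart from its group, and without it the count was 278 upward and 173 downward. Hprt, a gene of purine salvage, had 0, 0 and 1 TPM in D8 embryoids and 1 TPM in each D7 embryoid library, against 35, 33 and 32 TPM in D8 controls and 35, 34 and 36 TPM in D7 controls. The sample descriptions begin with E14 for embryoids and with WT for controls, although the cell line label is the same. Whether embryoids and controls came from the same line was not settled here, so condition and line cannot be told apart. A line difference of equal size on both days on the log2 scale drops out of this contrast, and the change of the difference for Hprt was -0.60 ± 0.30 (adjusted p = 0.26). Whether a line difference that varies with the day had a part in the results was not tested.

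The called genes were sorted by the side that moved, using the D8 against D7 comparison within each condition at the same thresholds. Only the embryoid comparison was called for 120 genes (embryoid side) and only the control comparison for 118 genes (control side). Both were called for 6 genes, and neither was called for 101 genes, in which smaller moves in the 2 conditions added up. Without any 1 of the 6 control libraries the embryoid side had 60 to 77 genes. The count for both sides was 2 without replicate 1 of the D8 embryoids, and 3 without replicate 2 of the D8 embryoids, replicate 1 of the D7 embryoids or replicate 3 of the D8 controls. On the embryoid side 115 genes went upward and 5 downward. On the control side 12 went upward and 106 downward. Over all tested genes, 2.53% were higher and 0.131% lower at D8 in embryoids, and 2.53% were higher and 0.204% lower at D8 in controls. Sorting by size, with a side named when it held at least 2/3 of the summed day changes, gave 128 genes on the embryoid side, 148 on the control side and 69 shared.

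**Figure D1:**
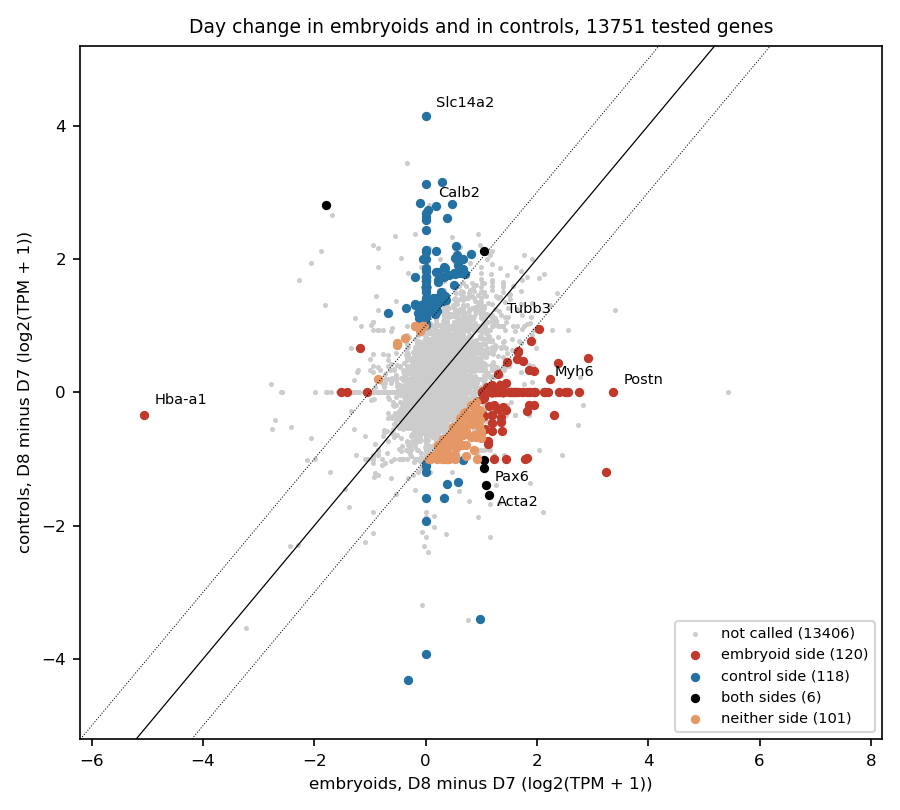
Day change (D8 minus D7, log2(TPM + 1)) in embryoids on the horizontal axis and in controls on the vertical axis, 1 point per tested gene, coloured by side. The solid line marks equal changes and the dotted lines a difference of 1. The 120 embryoid-side genes spread along the horizontal axis, the 118 control-side genes along the vertical axis, and the 101 genes of neither side lie where embryoids and controls moved in opposite directions.

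Of the called genes, 109 were listed at 0 in every library of the condition that did not move. Controls were at 0 throughout for 62 embryoid-side genes and embryoids were at 0 throughout for 47 control-side genes. For these the change of the difference is the day change of the other condition alone, and the silent groups add no spread, so that their standard errors can be too small. In 67 called genes no group mean exceeded 3 TPM.

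The comparison of embryoids with controls was itself called for 19.8% of tested genes at D8 and for 15.9% at D7. Read through these calls, 71 of the upward genes showed a difference called at D8 only, 64 a difference of the same sign that was larger at D8, 15 one that was smaller at D8, and 44 a difference called at D7 only. Of the downward genes, 58 were called at D8 only, 28 kept their sign with a larger size, 9 with a smaller size, and 14 were called at D7 only. Another 38 genes were called on no day, 27 upward and 11 downward. The sign was opposite on the 2 days for 4 genes. Among the 91 upward genes of neither side 25 had a difference called at D7 only.

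**Figure D2:**
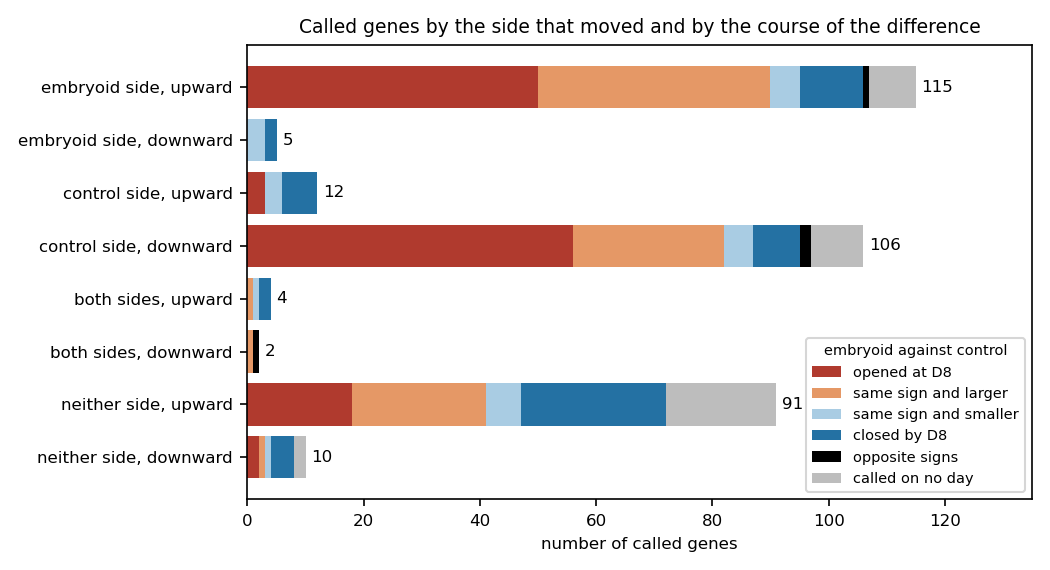
Number of called genes (horizontal axis) for each side and direction, divided by the course of the embryoid against control difference. Of the 115 upward genes of the embryoid side 50 opened at D8, and of the 106 downward genes of the control side 56 opened at D8.

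On the control side, the largest downward change was found for Slc14a2, a urea transporter gene, at 0 in all 6 embryoid libraries, against 38, 37 and 44 TPM in D8 controls and 2, 1 and 1 TPM in D7 controls. The D8 controls stood 29.8-fold above the D7 controls in their means, and the change of the difference was -4.15 ± 0.22 (adjusted p = 3.1e-06). Trp73 (chr4:154056249-154139875, GRCm38), which encodes the p53 relative p73, acts both in Cajal-Retzius cells and in the formation of multiciliated cells. It was listed at 0 in all 6 embryoid libraries, against 71, 68 and 75 TPM in D8 controls and 10, 12 and 10 TPM in D7 controls. The control days did not overlap, and the change of the difference was -2.64 ± 0.13 (adjusted p = 2.7e-06).

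Regulators of multiciliated cells, which carry many beating cilia, were a list of 14 tested genes, of which 4 were called downward and 0 upward. The median change over the list was -0.35, beside 0.02 over all tested genes. Mcidas, which starts the multiciliated programme, was listed at 1, 0 and 0 TPM in D8 embryoids and at 0 in D7 embryoids, against 25, 25 and 28 TPM in D8 controls and 7, 6 and 6 TPM in D7 controls. Foxj1, the transcription factor for motile cilia, was at 3, 2 and 1 TPM in D8 embryoids and 1 TPM in each D7 embryoid library, against 38, 37 and 38 TPM in D8 controls and 10, 11 and 10 TPM in D7 controls. The change of the difference was -1.55 ± 0.31 for Mcidas (adjusted p = 0.013) and -1.24 ± 0.26 for Foxj1 (adjusted p = 0.017). In both genes the controls rose with no overlap between the days while embryoids stayed at 3 TPM or less. The Mcidas call held without any 1 library, whereas that of Foxj1 was lost without replicate 3 of the D8 embryoids, at a change of -0.98, and the list then had 2 downward calls. Gmnc, which acts upstream of Mcidas, had a change of -1.11 ± 0.31 (adjusted p = 0.047), and its call held in only 2 of the 12 fits that left out 1 library, those without replicate 2 of the D7 embryoids and without replicate 1 of the D8 embryoids.

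Over this list, 3 members were called higher at D8 in embryoids and 8 in controls, and 11 of 14 changes of the difference were below 0. Ccno, which is needed to amplify centrioles and was chosen after its values were seen, was at 2, 1 and 1 TPM in D8 embryoids and 0 in D7 embryoids, against 34, 38 and 38 TPM in D8 controls and 11, 12 and 10 TPM in D7 controls. Both day comparisons were called for this gene, and the change of the difference was -0.46 ± 0.21 (adjusted p = 0.21). A step of 1 TPM from 0 is a log2 change of 1 on this scale, and with a pseudocount of 5 or 0.5 in place of 1 the list had 5 or 2 downward calls. E2f4 and E2f5, cell cycle and centriole factors used in many cells, were not called, with changes of -0.13 and -0.04. Of 77 listed genes of the motile axoneme, the machinery that Foxj1 switches on, 35 were tested. Of these 1 was called downward and 0 upward, beside 2.51% called over all tested genes, and the list median was -0.05.

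Of 19 tested genes of Cajal-Retzius and early cortical neurons, 4 were called downward and 2 upward. Tbr1, a transcription factor of the first cortical neurons, was listed at 0 in every embryoid library, against 40, 31 and 36 TPM in D8 controls and 4, 5 and 5 TPM in D7 controls. Calb2, the calcium-binding protein calretinin, was at 8, 5 and 5 TPM in D8 embryoids and 5, 6 and 6 TPM in D7 embryoids, against 194, 150 and 202 TPM in D8 controls and 22, 28 and 29 TPM in D7 controls. Reln, the secreted reelin that guides cortical layering, was at 2, 1 and 1 TPM in D8 embryoids and 1 TPM in each D7 embryoid library, against 10, 8 and 9 TPM in D8 controls and 1, 1 and 2 TPM in D7 controls. In all 3 genes the controls rose 6.75-fold to 7.64-fold in their means with no overlap between days, whereas the embryoid days overlapped or were both at 0. The change of the difference was -2.69 ± 0.16 for Tbr1 (adjusted p = 9.1e-06), -2.69 ± 0.24 for Calb2 (adjusted p = 0.00021) and -1.93 ± 0.27 for Reln (adjusted p = 0.0021). Each of these calls held without any 1 library.

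The fourth downward gene of this list was Trp73. Lhx5, a LIM homeobox gene of the medial telencephalon, went the other way, at 2, 1 and 1 TPM in D8 embryoids and 0 in D7 embryoids, against 20, 22 and 20 TPM in D8 controls and 18, 20 and 19 TPM in D7 controls. Its upward change of 1.08 ± 0.20 (adjusted p = 0.0080) came from values of 1 and 2 TPM, and without replicate 1 of the D8 embryoids it was 0.88 and below the fold threshold, which left 1 upward call, and with a pseudocount of 5 or quantile normalization the list had 0 upward calls. As a whole the list rose in both conditions, with 8 members called higher at D8 in embryoids and 13 in controls, and its median change of the difference was 0.05.

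Genes of cortical position and of the cortical hem included members that rose in controls and members that were high there on both days. Emx1, a homeobox gene of the dorsal cortex, was at 0 in every embryoid library, against 22, 19 and 22 TPM in D8 controls and 5, 7 and 5 TPM in D7 controls, with a change of -1.73 ± 0.18 (adjusted p = 0.00040). Its relative Emx2 was at 0, 1 and 0 TPM in D8 embryoids and 1, 0 and 1 TPM in D7 embryoids, against 107, 104 and 110 TPM in D8 controls and 95, 106 and 99 TPM in D7 controls. The levels of Emx2 in controls were thus similar on the 2 days, and the change of -0.43 ± 0.42 was not called (adjusted p = 0.60). Wnt3a, a ligand of both the cortical hem and the tail bud, was at 15, 5 and 10 TPM in D8 embryoids and 7, 7 and 8 TPM in D7 embryoids, against 44, 44 and 51 TPM in D8 controls and 4, 4 and 5 TPM in D7 controls. D7 embryoids were above D7 controls and D8 embryoids below D8 controls, with a change of -2.86 ± 0.38 (adjusted p = 0.0015), and the fold between the control days was 10.7. Wnt8b, a further ligand of the hem, was at 0, 1 and 0 TPM in D8 embryoids and 0 in D7 embryoids, against 241, 249 and 254 TPM in D8 controls and 210, 225 and 214 TPM in D7 controls, and was not called (change 0.14 ± 0.29, adjusted p = 0.83).

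**Figure D3:**
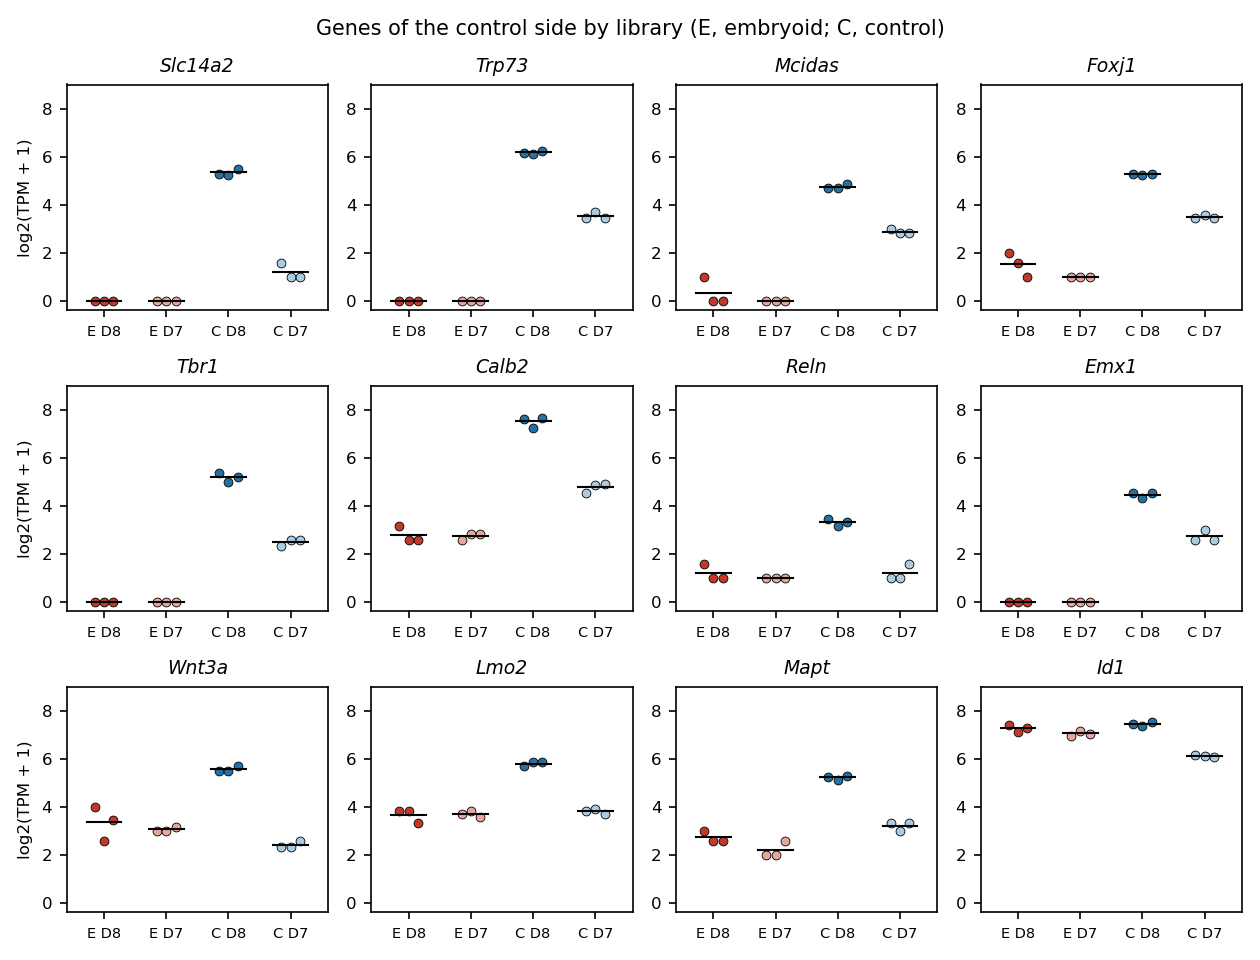
Values of 12 control-side genes in each library, as log2(TPM + 1), with 3 points per group and a bar at the group mean. Embryoid values lie close together on the 2 days, and D8 controls lie above D7 controls in every panel.

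Of 40 tested pan-neuronal genes, 17 were called higher at D8 in embryoids and 28 in controls. In the change of the difference 3 were called downward and 1 upward, beside 0.894% downward and 1.61% upward over all tested genes. The list median was -0.24, with 27 changes below 0 and 12 above. Tubb3, neuronal β-tubulin, was at 463, 213 and 286 TPM in D8 embryoids and 98, 118 and 170 TPM in D7 embryoids, against 1579, 1570 and 1660 TPM in D8 controls and 781, 750 and 763 TPM in D7 controls. Both conditions rose without overlap between days, and the change of the difference was 0.21 ± 0.35 (adjusted p = 0.79). The downward genes were Myt1l, a neuronal transcription factor at 3 TPM in each D8 control library and 0 elsewhere, Mapt, the microtubule protein tau, and Ncam1, a neural adhesion molecule. The Ncam1 call was lost in 6 of the 12 fits without 1 library, those without replicates 1 or 3 of the D8 controls, replicate 1 of the D7 controls, replicate 1 of the D8 embryoids or replicates 1 or 3 of the D7 embryoids, with a change of -0.90 at the weakest. Among these fits the list had an upward call only without replicate 1 of the D8 embryoids or replicate 2 of the D7 embryoids. Mapt was at 7, 5 and 5 TPM in D8 embryoids and 3, 3 and 5 TPM in D7 embryoids, against 37, 34 and 38 TPM in D8 controls and 9, 7 and 9 TPM in D7 controls (change -1.48 ± 0.24, adjusted p = 0.0040). Over all tested genes, 67 were called higher at D8 in both conditions, and 1 of these, Actl6b, had a called change of the difference.

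Some control-side genes were at or below the level of embryoids at D7. Lmo2, a cofactor of blood and endothelial genes that is also expressed in the brain, was at 13, 13 and 9 TPM in D8 embryoids and 12, 13 and 11 TPM in D7 embryoids, against 50, 57 and 57 TPM in D8 controls and 13, 14 and 12 TPM in D7 controls. The conditions overlapped at D7 and were apart at D8, with a change of -2.04 ± 0.18 (adjusted p = 0.00019). Lmo2 was the 1 call among 27 tested endothelial genes, beside 2.51% called over all tested genes. The median of that list was 0.20, with 17 changes above 0 and 6 below. Id1, a target of BMP signalling, was at 166, 136 and 155 TPM in D8 embryoids and 121, 142 and 131 TPM in D7 embryoids, against 174, 163 and 181 TPM in D8 controls and 70, 68 and 66 TPM in D7 controls. The conditions overlapped at D8 and not at D7, and the change was -1.12 ± 0.11 (adjusted p = 0.00029). Msx2, a homeobox gene induced by BMP, was at 12, 6 and 9 TPM in D8 embryoids and 7, 8 and 7 TPM in D7 embryoids, against 6 TPM in each D8 control library and 1 TPM in each D7 control library (change -1.59 ± 0.24, adjusted p = 0.0033). Of 19 tested BMP pathway genes, these 2 were called downward and 1 upward, and the list median was -0.01.

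Among the 12 upward genes of the control side, Maob, which encodes a monoamine oxidase, was at 2 TPM in all 6 embryoid libraries, against 3 TPM in each D8 control library and 13, 15 and 15 TPM in D7 controls. Its change was 1.94 ± 0.12 (adjusted p = 9.1e-06), and the difference called at D7 was no longer called at D8. Pnoc, the precursor of a neuropeptide, was at 3, 4 and 3 TPM in D8 embryoids and 3, 2 and 2 TPM in D7 embryoids, against 6, 8 and 6 TPM in D8 controls and 18, 20 and 18 TPM in D7 controls. Both genes fell in controls alone.

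On the embryoid side, genes of the mesenchymal matrix gave the most calls, 12 upward and 0 downward of 28 tested, with a list median of 0.90. With a pseudocount of 5 there were 6 upward calls. Postn (chr3:54359267-54391041, GRCm38), periostin of heart valves and connective tissue, was at 129, 250 and 329 TPM in D8 embryoids and 25, 30 and 11 TPM in D7 embryoids, and was listed at 0 in all 6 control libraries. The means of the embryoid days differed 10.7-fold, and the change of the difference was 3.37 ± 0.51 (adjusted p = 0.0034). Col1a2, a chain of type I collagen, was at 51, 117 and 128 TPM in D8 embryoids and 28, 27 and 23 TPM in D7 embryoids, against 0 in D8 controls and 1 TPM in each D7 control library (change 2.78 ± 0.37, adjusted p = 0.0015). Part of this change is the step from 1 to 0 TPM in controls, which can be rounding. Col3a1, the chain of type III collagen, was at 181, 341 and 359 TPM in D8 embryoids and 79, 85 and 68 TPM in D7 embryoids, and at 0 in all controls (change 1.85 ± 0.29, adjusted p = 0.0034). Replicate 1 of the D8 embryoids was the lowest of its group in each of these genes, and the embryoid days did not overlap in any of them.

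The small proteoglycans Lum and Dcn, which space collagen fibrils, were also called, with changes of 2.51 ± 0.45 and 2.15 ± 0.45. These 5 matrix calls held without any 1 library. Other matrix genes were high in embryoids on both days. Fn1, fibronectin, was at 113, 171 and 202 TPM in D8 embryoids and 131, 97 and 151 TPM in D7 embryoids, against 68, 64 and 62 TPM in D8 controls and 56, 75 and 70 TPM in D7 controls, and it was not called (change 0.38 ± 0.30, adjusted p = 0.50). The summed level of the list was 1335 to 2216 TPM in D8 embryoids and 912 to 951 TPM in D7 embryoids, against 426 to 462 TPM in D8 controls and 338 to 420 TPM in D7 controls. In bulk samples more cells of a type and more RNA per cell cannot be told apart.

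**Figure D4:**
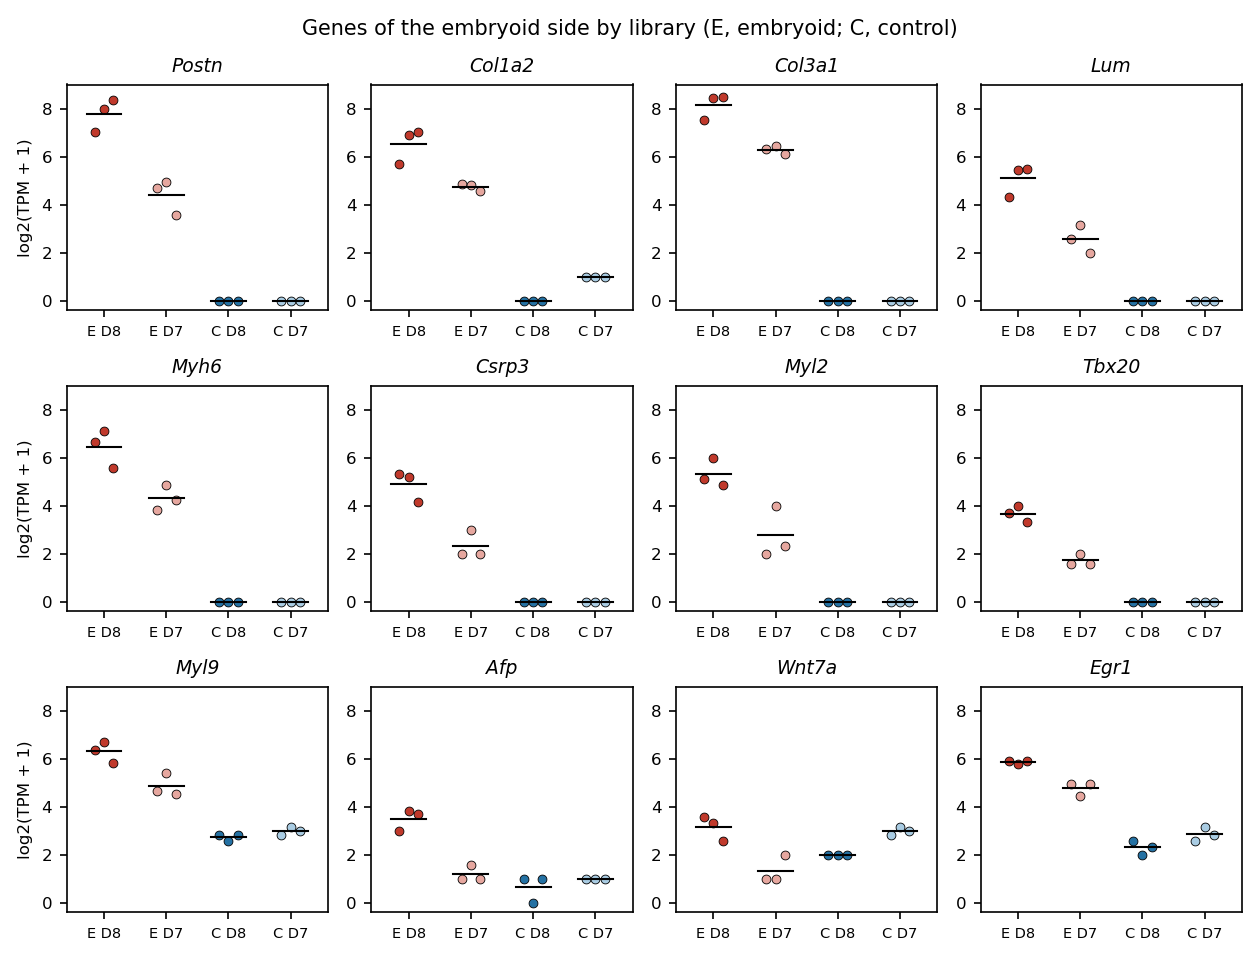
Values of 12 embryoid-side genes in each library, as log2(TPM + 1), with 3 points per group and a bar at the group mean. D8 embryoids lie above D7 embryoids in every panel, and controls lie at 0 on both days for Postn, Col3a1, Lum, Myh6, Csrp3, Myl2 and Tbx20.

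Cardiac sarcomere genes had the largest list median, 1.62 over 22 tested genes, with 22 of 22 changes above 0 and 6 called upward. Myh6, the α-myosin heavy chain of heart muscle, was at 98, 138 and 47 TPM in D8 embryoids and 13, 28 and 18 TPM in D7 embryoids, and at 0 in all controls (change 2.14 ± 0.48, adjusted p = 0.021). Csrp3, a Z-disc protein, was at 39, 36 and 17 TPM in D8 embryoids and 3, 7 and 3 TPM in D7 embryoids, and at 0 in all controls (change 2.57 ± 0.44, adjusted p = 0.0051). Myl2, the ventricular myosin light chain, was at 34, 62 and 28 TPM in D8 embryoids and 3, 15 and 4 TPM in D7 embryoids, and at 0 in all controls (change 2.55 ± 0.62, adjusted p = 0.031). In these genes replicate 3 was the lowest D8 library and replicate 2 the highest D7 library, and the days still did not overlap.

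Sarcomere genes with the highest levels were not called. Among them, Actc1 and Myl7 had changes of 1.60 to 2.33 and of 1.61 to 2.47 in the fits without 1 library. Both were called without replicate 2 of the D7 embryoids or without replicate 3 of the D8 embryoids. Tnnt2, cardiac troponin T, was at 507, 756 and 280 TPM in D8 embryoids and 139, 374 and 138 TPM in D7 embryoids, at 0, 0 and 1 TPM in D8 controls and at 0 in D7 controls, and its change was 0.96 ± 0.63 (adjusted p = 0.41). Here the days overlapped, through replicate 3 at D8 and replicate 2 at D7. The number of called sarcomere genes rested on these libraries, with 14 without replicate 2 of the D7 embryoids, 15 without replicate 3 of the D8 embryoids and 3 to 4 without any 1 control library. The Myh6 call was lost without 5 of the 6 control libraries, the exception being replicate 2 of D8, and the Myl2 call without any 1 control library, without replicate 3 of the D7 embryoids and without replicate 2 of the D8 embryoids, at adjusted p of up to 0.072. The Csrp3 call held without any 1 library.

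Of 20 tested cardiac regulators and calcium handling genes, 6 were called upward and 0 downward, with a list median of 0.60. This count was 3 without any 1 of 7 libraries (replicates 2 and 3 of the D8 controls, 1 and 2 of the D7 controls, 1 and 2 of the D8 embryoids and 1 of the D7 embryoids), 9 without replicate 3 of the D8 embryoids, 3 with median-of-ratios factors, and 2 with quantile normalization or a pseudocount of 5. Of its members, the calls of Trdn, a calcium release protein, and Popdc2, a membrane protein of heart and muscle, held in 2 and 3 of the 12 fits without 1 library, whereas those of Tbx20 and Pln held in all 12. Tbx20, a T-box factor of the heart, was at 12, 15 and 9 TPM in D8 embryoids and 2, 3 and 2 TPM in D7 embryoids, and at 0 in all controls (change 1.95 ± 0.25, adjusted p = 0.0012). Pln, which restrains the calcium pump of the sarcoplasmic reticulum, was at 6, 6 and 3 TPM in D8 embryoids and 0, 1 and 0 TPM in D7 embryoids, and at 0 in all controls (change 2.20 ± 0.40, adjusted p = 0.0075). Hand1, a factor of early heart and lateral mesoderm, was at 72, 119 and 126 TPM in D8 embryoids and 78, 105 and 37 TPM in D7 embryoids, and was not called (change 0.60 ± 0.44, adjusted p = 0.48). Tbx20 and Pln did not overlap between the embryoid days, whereas Hand1 did.

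Smooth muscle contractile genes had 4 upward and 0 downward calls of 13, with a list median of 0.82, and here controls contributed. Acta2 (chr19:34240336-34255585, GRCm38), smooth muscle α-actin, was at 125, 212 and 156 TPM in D8 embryoids and 66, 118 and 54 TPM in D7 embryoids, against 0 in D8 controls and 1, 2 and 2 TPM in D7 controls. Both days were called, upward in embryoids and downward in controls, and the change of the difference was 2.48 ± 0.39 (adjusted p = 0.0038), of which the control part rests on 1 to 2 TPM. Cnn2, calponin 2, was at 142, 181 and 170 TPM in D8 embryoids and 116, 133 and 93 TPM in D7 embryoids, against 15, 16 and 15 TPM in D8 controls and 29, 33 and 29 TPM in D7 controls (change 1.47 ± 0.17, adjusted p = 0.00087). Neither day comparison of Cnn2 was called, with a D8 mean 1.44 times that of D7 in embryoids and 0.505 times that of D7 in controls. Myl9, a regulatory myosin light chain, was at 81, 103 and 56 TPM in D8 embryoids and 24, 41 and 22 TPM in D7 embryoids, against 6, 5 and 6 TPM in D8 controls and 6, 8 and 7 TPM in D7 controls (change 1.70 ± 0.34, adjusted p = 0.013).

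Promoters of these muscle genes are shown because the CArG box, the binding motif of serum response factor, is a known feature of contractile genes. The motif was searched on both strands in the 250 bases before RefSeq starts in GRCm38.p6, and it was added after the gene values were seen. It was present in 9 of 44 promoters of the smooth muscle and sarcomere lists (20.5%, 34 of 42 genes matched), against 170 of 13580 promoters of tested genes (1.25%). Of the genes that hold it in those lists, Myl9 and Cnn2 were called. Among upward genes of the embryoid side as a whole it was present in 2 of 107 promoters (1.87%). The stretches are written 5′ to 3′ on the strand of the gene, with the CArG box in capitals, chr2:156775273-156775342 (plus strand) for Myl9 and chr10:79988514-79988583 (plus strand) for Cnn2.
Myl9: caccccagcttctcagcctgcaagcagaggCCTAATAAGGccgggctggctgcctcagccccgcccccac
Cnn2: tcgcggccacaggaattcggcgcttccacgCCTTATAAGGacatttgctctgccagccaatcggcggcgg

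The RFX X-box, the motif of the RFX factors that act with Foxj1 on ciliary genes, was searched in the same windows on both strands for the control side. It was present in 2 of 112 promoters of downward control-side genes (1.79%), in 0 of 107 promoters of upward embryoid-side genes, and in 320 of 13580 promoters of tested genes (2.36%). The E-box CANNTG, bound by proneural factors among others, was present in 68.8%, 61.7% and 57.3% of these promoters, and in 66.2% of all 32851 RefSeq promoters. A motif match is a description of the sequence and shows no binding. The 2 control-side stretches with an X-box (capitals) are those of 1110017D15Rik, at 1 TPM in all 6 embryoid libraries, against 4, 5 and 5 TPM in D8 controls and 2, 1 and 1 TPM in D7 controls, and of Myt1l. They lie at chr4:41507765-41507812 (minus strand) and chr12:29528143-29528216 (plus strand), and are written on the strand of the gene.
1110017D15Rik: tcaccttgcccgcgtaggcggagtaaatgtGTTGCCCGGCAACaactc
Myt1l: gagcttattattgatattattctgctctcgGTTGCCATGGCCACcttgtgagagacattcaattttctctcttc

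Genes of yolk sac and liver secretion had 3 upward calls of 9 tested genes, and 5 without replicate 2 of the D7 embryoids. The call of Rbp4, the retinol carrier of blood, held in only 1 of the 12 fits without 1 library, the one without that same library, and in 4 of 9 with another processing choice. Afp, the α-fetoprotein of yolk sac endoderm and fetal liver, was at 7, 13 and 12 TPM in D8 embryoids and 1, 2 and 1 TPM in D7 embryoids, against 1, 0 and 1 TPM in D8 controls and 1 TPM in each D7 control library (change 2.64 ± 0.41, adjusted p = 0.0034). Apoe, apolipoprotein E, was at 71, 75 and 79 TPM in D8 embryoids and 49, 77 and 48 TPM in D7 embryoids, against 26, 26 and 22 TPM in D8 controls and 40, 47 and 44 TPM in D7 controls (change 1.20 ± 0.21, adjusted p = 0.0067). Pf4, a chemokine of megakaryocytes and platelets, was at 7, 6 and 10 TPM in D8 embryoids and 1, 0 and 0 TPM in D7 embryoids, and at 0 in all controls (change 2.76 ± 0.37, adjusted p = 0.0015). The Afp and Pf4 embryoid days did not overlap, whereas those of Apoe did. For Apoe neither day comparison was called, and the D8 controls were below the D7 controls without overlap.

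Some neural genes also rose in embryoids. Neurog1, a proneural factor of sensory and other neurons, was at 7, 7 and 5 TPM in D8 embryoids and 1, 1 and 2 TPM in D7 embryoids, against 18 TPM in each D8 control library and 11, 12 and 11 TPM in D7 controls (change 1.04 ± 0.22, adjusted p = 0.017). Its call was lost without replicates 1 or 2 of the D8 embryoids or replicates 1 or 2 of the D7 embryoids, with changes down to 0.94. Wnt7a, a WNT ligand of the dorsal neural tube and limb, was at 11, 9 and 5 TPM in D8 embryoids and 1, 1 and 3 TPM in D7 embryoids, against 3 TPM in each D8 control library and 6, 8 and 7 TPM in D7 controls. It was above controls at D8 and below them at D7, with both days called, and its change was 2.82 ± 0.40 (adjusted p = 0.0021).

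The WNT pathway list had 7 upward and 1 downward call of 34, the downward gene being Wnt3a. The upward count was 4 with a replicate block and without any 1 of 5 control libraries (all but replicate 2 of D8). The downward count was 3 with quantile normalization or without replicate 1 of the D8 embryoids, and 2 without replicate 1 of the D7 controls or replicate 3 of the D7 embryoids. The upward genes included ligands (Wnt7a, Wnt1 and Wnt2) and secreted inhibitors (Frzb, Sfrp1 and others). The Wnt1 call held in only 4 of the 12 fits without 1 library and was lost without any 1 control library, replicate 1 of the D7 embryoids or replicate 3 of the D8 embryoids, at adjusted p of up to 0.074. Wnt2, a ligand of early heart and lung mesoderm, was at 39, 30 and 32 TPM in D8 embryoids and 12, 17 and 12 TPM in D7 embryoids, and at 0 in all controls (change 1.25 ± 0.19, adjusted p = 0.0033). Frzb was at 33, 38 and 41 TPM in D8 embryoids and 28, 24 and 23 TPM in D7 embryoids, against 3, 4 and 4 TPM in D8 controls and 8, 6 and 7 TPM in D7 controls (change 1.34 ± 0.18, adjusted p = 0.0015). Sfrp1 was at 51, 56 and 44 TPM in D8 embryoids and 38, 36 and 43 TPM in D7 embryoids, against 48, 48 and 45 TPM in D8 controls and 81, 84 and 85 TPM in D7 controls (change 1.17 ± 0.12, adjusted p = 0.00040). For Frzb and Sfrp1 neither day comparison was called, and the D8 controls were below the D7 controls without overlap.

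The early response genes Egr1 and Fos, transcription factors induced within minutes by growth factors and by handling, were chosen after their values were seen. Egr1 was at 58, 53 and 59 TPM in D8 embryoids and 30, 21 and 30 TPM in D7 embryoids, against 5, 3 and 4 TPM in D8 controls and 5, 8 and 6 TPM in D7 controls (change 1.61 ± 0.26, adjusted p = 0.0040). Fos was at 11, 18 and 27 TPM in D8 embryoids and 7, 5 and 7 TPM in D7 embryoids, against 4, 3 and 3 TPM in D8 controls and 4, 6 and 4 TPM in D7 controls (change 1.73 ± 0.37, adjusted p = 0.018), and its call was lost without replicate 3 of the D8 controls. The part of dissection or handling in these genes was not tested.

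Downward genes of the embryoid side were few, 5 in all. They were Hba-a1, Gpx2, Hoxaas3 and the somite markers Tcf15 and Cer1. Tcf15, a factor of paraxial mesoderm and somites, was at 3, 3 and 2 TPM in D8 embryoids and 7, 5 and 8 TPM in D7 embryoids, and at 0 in all controls (change -1.06 ± 0.24, adjusted p = 0.021). Its call was lost without replicates 1 or 3 of the D8 controls, replicate 3 of the D7 embryoids or replicate 3 of the D8 embryoids. Cer1, a secreted antagonist of NODAL, BMP and WNT that is found in forming somites, was at 0 in D8 embryoids and 3, 1 and 2 TPM in D7 embryoids, and at 0 in all controls (change -1.53 ± 0.31, adjusted p = 0.014). Both genes are low, and no D8 value reached the lowest D7 value. The somite list as a whole (16 tested) had 2 downward and 0 upward calls. Its median was -0.36, with 10 changes below 0 and 6 above. Besides Tcf15 the called member was Uncx (change -1.62 ± 0.26), on the control side, where controls rose. The summed level of this list overlapped between the embryoid days, at 260 to 311 TPM at D8 and 204 to 307 TPM at D7.

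Tail bud genes had the lowest list median, -0.93 over 14 tested genes, with 1 downward call (Wnt3a, on the control side; 4 with quantile normalization, 2 with median-of-ratios factors or without replicate 2 of the D7 embryoids) and 4 members called lower at D8 in embryoids. Cdx2, a homeobox gene of the posterior axis, was at 7, 27 and 18 TPM in D8 embryoids and 46, 42 and 27 TPM in D7 embryoids, and at 0 in all controls (change -1.24 ± 0.51, adjusted p = 0.16). T (Brachyury), which marks the primitive streak and tail bud and was chosen after its values were seen, was at 3, 29 and 6 TPM in D8 embryoids and 30, 25 and 17 TPM in D7 embryoids, and at 0 in all controls (change -1.37 ± 0.79, adjusted p = 0.34). Replicate 2 of the D8 embryoids carried the highest value of its group in both genes. Without it both were called, Cdx2 at a change of -1.64 (adjusted p = 0.046) and T at -2.20 (adjusted p = 0.0051).

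Hox genes, which mark positions along the trunk, were listed at 0 in controls throughout and had 0 calls in any paralog class. The list median was -0.12 over 11 tested genes of groups 1 to 4, 0.12 over 11 of groups 5 to 8 and 0.75 over 12 of groups 9 to 13. Hoxb9 was at 129, 109 and 113 TPM in D8 embryoids and 124, 113 and 136 TPM in D7 embryoids (change -0.09 ± 0.12, adjusted p = 0.73). With quantile normalization the middle class had a median of -0.03.

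The 4 upward genes called on both sides rose in embryoids and fell in controls. Apart from Acta2 they were genes that had been higher in controls at D7. Pax6, a factor of eye, forebrain, hindbrain and spinal cord progenitors, was at 22, 19 and 15 TPM in D8 embryoids and 7, 7 and 12 TPM in D7 embryoids, against 40, 43 and 37 TPM in D8 controls and 85, 80 and 80 TPM in D7 controls. Its log2 difference was -1.07 at D8 and -3.14 at D7, a change of 2.06 ± 0.25 (adjusted p = 0.0011). By in situ hybridization the study placed Pax6 in D7 embryoids likely in hindbrain and spinal cord, and the forebrain domain appeared absent. Ctgf, a secreted matricellular protein, was at 9, 7 and 6 TPM in D8 embryoids and 3 TPM in each D7 embryoid library, against 9, 10 and 9 TPM in D8 controls and 20, 23 and 22 TPM in D7 controls. The difference of -2.50 at D7 was -0.32 at D8, a change of 2.18 ± 0.16 (adjusted p = 6.7e-05). Vit, the matrix protein vitrin, was at 3, 6 and 2 TPM in D8 embryoids and 1 TPM in each D7 embryoid library, against 3 TPM in each D8 control library and 9, 11 and 12 TPM in D7 controls (change 2.67 ± 0.34, adjusted p = 0.0012). For Ctgf and Vit the conditions were apart at D7 and overlapped at D8, and these 4 calls held without any 1 library.

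The downward gene Actl6b, a chromatin remodeller subunit of neurons, rose on both sides, with 5, 2 and 3 TPM in D8 embryoids and 1 TPM in each D7 embryoid library, against 27, 27 and 30 TPM in D8 controls and 6, 5 and 6 TPM in D7 controls (change -1.07 ± 0.27, adjusted p = 0.035). Its call held in only 2 of the 12 fits without 1 library.

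Of the 101 genes of neither side, 91 went upward and 10 downward. All 91 upward genes had a positive change in embryoids and a negative change in controls, with medians of 0.58 and -0.66, and all 10 downward genes the reverse. Capn6, a calpain family protein, was at 94, 124 and 129 TPM in D8 embryoids and 71, 64 and 48 TPM in D7 embryoids, against 7, 9 and 8 TPM in D8 controls and 15, 19 and 17 TPM in D7 controls (change 1.92 ± 0.22, adjusted p = 0.00087). Gpx3, a secreted glutathione peroxidase, was at 107, 83 and 83 TPM in D8 embryoids and 48, 50 and 49 TPM in D7 embryoids, against 8, 9 and 7 TPM in D8 controls and 11, 15 and 13 TPM in D7 controls (change 1.50 ± 0.18, adjusted p = 0.00087). Days did not overlap in either condition for these genes. Cd24a, a surface glycoprotein of neural and epithelial cells, was a downward gene of this kind, at 688, 739 and 736 TPM in D8 embryoids and 817, 747 and 716 TPM in D7 embryoids, against 373, 357 and 352 TPM in D8 controls and 208, 162 and 188 TPM in D7 controls (change -1.03 ± 0.11, adjusted p = 0.00052). Its call was lost without replicate 2 of the D7 controls or replicates 1 of the D7 or D8 embryoids, with a change of -0.94 at the weakest.

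**Figure D5:**
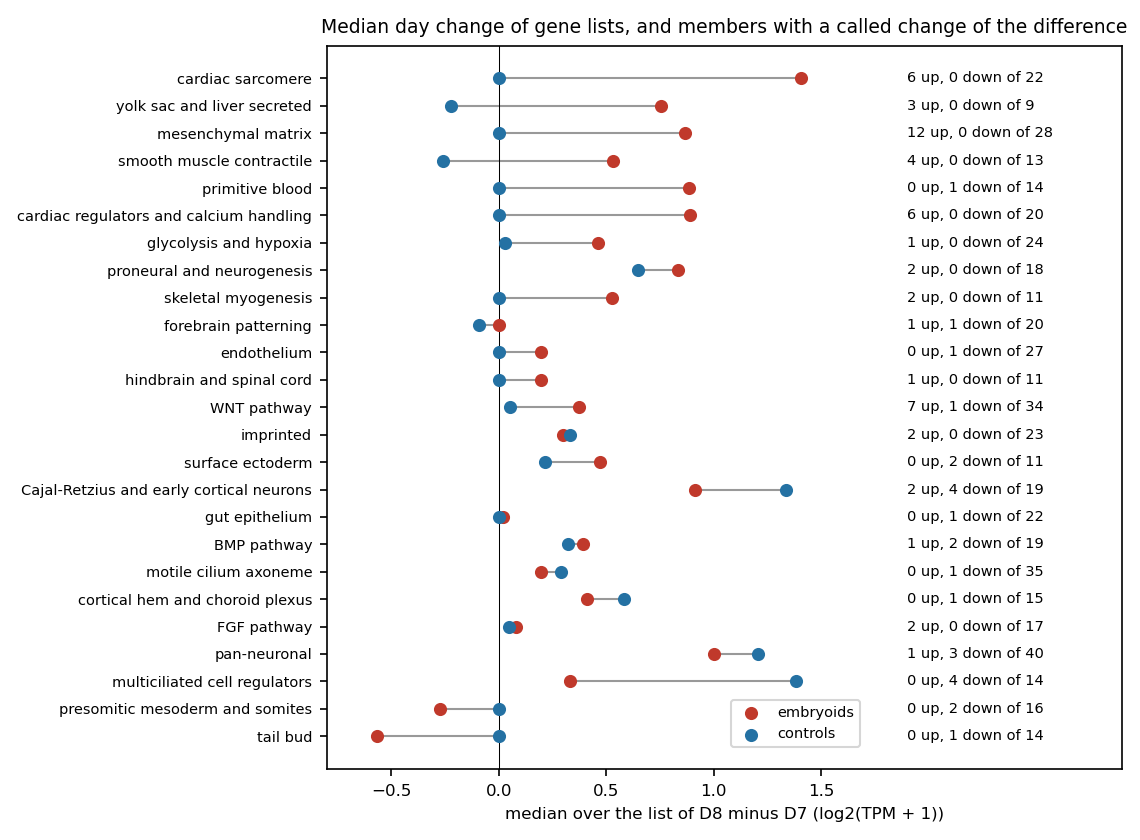
Median day change (D8 minus D7, log2(TPM + 1)) of the tested members of each gene list with at least 9 tested members and at least 1 call, in embryoids (red) and controls (blue), ordered by the median change of the difference, with the number of members called. Cardiac sarcomere genes lie at the top and tail bud genes at the bottom, and for pan-neuronal genes both medians lie at 1.00 or above.

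Lists of general cell state had few calls. Of 27 tested cell cycle genes, 98 cytosolic ribosomal protein genes, 24 genes of cholesterol and fatty acid synthesis and 21 stress response genes, 0 were called, with medians of 0.19, 0.15, -0.20 and 0.09. Over all tested genes 2.51% were called, so few calls do not show that a list was unmoved. Changes were above 0 for 24 cell cycle and 88 ribosomal protein genes, and for 6 synthesis and 14 stress response genes. Of 24 tested glycolysis and hypoxia genes, 1 was called upward, with a median of 0.45 and 22 changes above 0. Of 46 clustered protocadherin genes, which give neurons their surface identity, 0 were called, with a median of -0.28. Ribosomal protein genes took 15.6% to 16.4% of all TPM in D8 embryoids and 16.1% to 18.7% in D7 embryoids, against 10.7% to 11.2% in D8 controls and 12.8% to 13.4% in D7 controls. The part of this share in the other changes was not tested.

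Some calls are uncertain through the way short or near-identical genes are counted. Hba-a1, an α-globin gene, was at 0 in D8 embryoids and 48, 67 and 10 TPM in D7 embryoids, against 1, 1 and 2 TPM in D8 controls and 2, 1 and 3 TPM in D7 controls, the largest downward change among called genes, at -4.72 ± 0.78 (adjusted p = 0.0053). Its near-identical copy Hba-a2, chosen after its values were seen, was at 71, 169 and 281 TPM in D8 embryoids and 42, 0 and 0 TPM in D7 embryoids, and at 0 in all controls. The sum of the pair was 71, 169 and 281 TPM in D8 embryoids and 90, 67 and 10 TPM in D7 embryoids, and the days overlapped. The microRNA genes Mir1898, Mir682, Mir3093 and Mir339 and the short gene Sap25 changed between 0 and several TPM within or between groups. Mir1898 was at 0 in D8 embryoids and 5, 0 and 6 TPM in D7 embryoids, against 6 TPM in each D8 control library and 0 in D7 controls. Mir339 was at 6, 10 and 10 TPM in D8 embryoids and 0 in D7 embryoids, against 0 in D8 controls and 11, 0 and 0 TPM in D7 controls. The part of host or overlapping transcripts in these values was not tested.

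Close to the fold threshold, among genes past the p threshold, Fgf10, a ligand for limb, lung and second heart field, had a change of 1.01 and Anxa6 one of 1.00, just inside. Etv4, an ETS factor downstream of FGF, was at -0.99, and Nsg2 lay between it and the threshold, just outside. Because the values are whole numbers, 15 genes had a change of exactly 1 in size and were not counted, and with them the counts were 228 upward and 132 downward.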

How the data were processed

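Reads were mapped by the authors to mm10. Per the labels their tools were STAR 2.6.1a, SAMtools 0.1.20, featureCounts and DESeq2. The deposited table is treated as a score, because its unit was inferred: the authors' TPM rounded to whole numbers, with unknown depth. Its 12 library columns were all used, as log2(TPM + 1) with a pseudocount of 1. A gene was tested where any of the 4 group means exceeded 1. Group means were fitted in limma 3.58.1 (statmod 1.5.0, R 4.3.3) with moderated variances (robust, with a trend) and Benjamini-Hochberg adjustment over all tested genes, after a test on simulated data. Tables and figures were made in Python 3.11.15 with matplotlib 3.10.9. Gene lists (41 by hand and 2 by symbol) are described by counts and medians without a set test.

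The members and lists were chosen with earlier results of these data known. Genes were named by a rule: the 12 largest changes of each side and direction, up to 5 called and 3 uncalled members of a list, all genes called on both sides or with opposite signs, 5 on each side of the fold threshold, and Hprt, Postn and Trp73. Any gene outside it is marked as chosen after its values were seen. Alternatives were other pseudocounts (0.5 and 5), filters (none, above 5), scalings (median-of-ratios, quantile), plain variances, array weights, no minimum fold, a replicate block and leaving out each library. Replicate numbers come from the titles. Deviations of libraries with the same number correlated at -0.19 to 0.08 over 18 pairs, so the numbers do not pair the samples. Promoters are RefSeq's, GRCm38.p6.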

Additional observations from a re-analysis of the deposited data

Results flagged for a closer look

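The contrast itself asks whether the embryoid against control difference was the same on the 2 days, and it was not for 222 genes upward and 123 genes downward (limma). The difference was called on both days with opposite signs for 4 genes. Wnt7a was above controls at D8 and below them at D7, with a change of 2.82. Masp1, a protease of the complement system, was below controls at D8 and above them at D7 (change -2.35), with 14, 16 and 19 TPM in D8 embryoids and 11, 11 and 12 TPM in D7 embryoids, against 36, 33 and 40 TPM in D8 controls and 3, 5 and 5 TPM in D7 controls. Chl1, a neural adhesion molecule, was likewise below controls at D8 and above them at D7 (change -2.60), with 3, 2 and 2 TPM in D8 embryoids and 2, 1 and 3 TPM in D7 embryoids, against 7, 5 and 6 TPM in D8 controls and 0 in D7 controls. Mir1898 had a change of -4.60 from values of 0 to 6 TPM.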

How the results depend on the processing

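Of the 345 calls, 78 were made under all 9 refits with another processing choice and all 12 that left out 1 library, 31 of them on the embryoid side, 28 on the control side, 5 on both sides and 14 on neither. A call counted as not made where a refit did not test the gene. With the filter above 5, 240 of the calls were made, 4 were weaker and the rest were not tested. No call changed its direction under any alternative. Counts upward, downward, on the embryoid, control, both and neither sides were, with a pseudocount of 5, 68, 42, 37, 40, 0 and 33. With no minimum fold they were 738, 510, 412, 578, 222 and 36. With quantile normalization they were 138 upward, 191 downward, 78 on the embryoid side and 3 on both sides, so that 41.9% of calls were upward, against 64.3% in the reported fit and 68.8% with median-of-ratios factors, while the median of all tested genes moved by less than 0.1 (from 0.02 to -0.02). The cause was not tested. A filter above 5 gave 80 downward, 79 on the embryoid side and 75 on the control side, with fewer genes tested. The embryoid side had 202 genes with median-of-ratios factors and 181 with array weights, and a pseudocount of 0.5 gave 11 genes on both sides. Leaving out 1 library gave 139 to 278 upward, 97 to 173 downward, 60 to 176 on the embryoid side, 104 to 142 on the control side, 2 to 5 on both sides and 73 to 128 on neither side. The embryoid side fell to 60 to 77 without any 1 of the 6 control libraries, and the lowest upward count was without replicate 3 of the D8 controls. A replicate block gave 190 upward and 109 downward, 99 on the embryoid side and 105 on the control side, and no correlation of same-numbered libraries was over 0.1. Unknown depth, rounding and 3 pools per group limit the low genes.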
